A study of Mus musculus with 65 samples.

Results

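Notch1, Dll1, Hes1 and Hes5 are a receptor, a ligand and a pair of nuclear effectors of the Notch pathway, and their rows were taken by name from the 3 deposited tables. All 4 genes were present, among 10407 genes in all. The tables hold 65 libraries from the CD1 mouse strain, each of 1 cell collected by Patch-seq, a method that takes up a cell's RNA through a patch pipette. The 3 groups are 19 progenitors of embryonic day 15 (E15) transplanted into a brain of embryonic day 12 (E12), called transplanted cells,, 26 E15 wild-type cells and 20 E12 wild-type cells. The wild-type cells carry FlashTag, a dye put into the ventricle that marks cells dividing at its surface. The study asks what happens to apical progenitors in a younger host. Neither animals, litters and hosts nor the time between transplantation and collection are named in the labels. Each group therefore counted as 1 sample, so no test was made and no p-value is given. Limits in parentheses are exact 95% limits. Those on CPM cover the counting of reads only and take each read as a separate molecule, though PCR copies cannot be told apart here. Those on shares of cells take each cell as a separate draw. Neither kind covers differences between animals.

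In Notch signalling a ligand such as Dll1 on one cell binds a Notch receptor on its neighbour, and the receptor is cut so that its inner part reaches the nucleus. There it joins the DNA-binding protein Rbpj and switches on Hes genes, whose products repress proneural factors such as Neurog2. In the embryonic cortex this keeps apical progenitors dividing, while proneural factors switch on Dll1 in cells that start to differentiate.

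Dll1, on the minus strand of chromosome 17 from 15367354 to 15376872 (GRCm38, GENCODE vM21), and Hes5, on the plus strand of chromosome 4 from 154960923 to 154962371, stand on the 2 sides of this circuit. Their promoters are shown because each holds a match to the binding letters of the factor that is known to act on it. The RefSeq promoter table (GRCm38.p6), which runs from 250 bases before to 50 bases after a start, matched 3 of the 4 genes, all but Hes1. In the Hes5 window, chr4:154960673-154960972 on the plus strand, the capitals mark GTGGGAA, core letters bound by Rbpj, in both orientations. In the window of the second Dll1 start, chr17:15376883-15377182 on the minus strand, they mark CAGCTG, letters bound by proneural factors. Both are written 5′ to 3′ in the direction of the gene.
Hes5: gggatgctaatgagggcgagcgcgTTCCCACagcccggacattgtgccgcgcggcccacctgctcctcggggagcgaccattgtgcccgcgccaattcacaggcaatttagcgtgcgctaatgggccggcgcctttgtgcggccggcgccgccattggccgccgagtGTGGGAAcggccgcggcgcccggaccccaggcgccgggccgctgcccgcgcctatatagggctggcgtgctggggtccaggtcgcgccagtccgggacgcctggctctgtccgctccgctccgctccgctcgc
Dll1: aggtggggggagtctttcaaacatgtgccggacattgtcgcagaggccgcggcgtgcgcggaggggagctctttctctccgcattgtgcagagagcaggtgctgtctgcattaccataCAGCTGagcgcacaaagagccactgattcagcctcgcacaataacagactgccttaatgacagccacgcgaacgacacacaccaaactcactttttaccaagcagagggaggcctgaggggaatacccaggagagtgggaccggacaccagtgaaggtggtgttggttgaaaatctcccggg
GTGGGAA was searched on both strands, and its 2 matches in the Hes5 window begin at -226 (minus strand) and -83 (plus strand), counted in bases from the first base of the transcript. It occurred at least once in 6.38% of the 32851 promoters of the table and at least 2 times in 0.256% of them. CAGCTG reads the same on both strands, began at -132 in the Dll1 window, and occurred in 16.3% of promoters. The windows of Notch1 and of the other Dll1 start held neither set of letters. CAGATG, also searched on both strands, was in no window of the 3 genes and in 17.2% of promoters, and CACNAG, bound by Hes proteins, was in the Notch1 window, in this Dll1 window and in 42.5% of promoters. These matches are letters in a window and were not set against any measurement of binding.

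The deposited values are log10 residuals, and the read counts behind them were recovered exactly, so levels are given as CPM, a gene's reads scaled by all reads of the tabled genes in the same cell or group. Cells held 22358 to 3622411 reads in the transplanted group (median 166134), 11449 to 4560871 at E15 (median 998629.5) and 10928 to 1635767 at E12 (median 148824). In 16 libraries above 8000 genes had a read: 5 transplanted, 11 E15 and 0 E12 libraries, with 63.5%, 70.6% and 0% of the reads of their groups. These libraries stood apart in marker genes. At E15 the summed level of 8 apical progenitor markers other than Hes1 and Hes5 had a median of 1531 CPM in the many-gene libraries and 13200 CPM in the other E15 libraries, and that of 8 neuron markers 4467 and 654 CPM. In transplanted cells these medians were 1934 and 4817 CPM for the apical progenitor markers and 5463 and 1193 CPM for the neuron markers. Microglia and macrophage markers, 13 in all, had a median sum of 2790 CPM in the many-gene E15 libraries and 118.6 CPM in the others, and of 27.6 and 373.7 CPM in transplanted cells. The 12 ventral telencephalon markers had a median sum of 3853 CPM in the many-gene E15 libraries and 600.6 CPM in the others, and of 3317 and 711 CPM in transplanted cells. The 4 erythroid markers had 47.1 and 349 CPM at E15 and 117.9 and 7509 CPM in transplanted cells. Outside the many-gene libraries the erythroid markers made up 35850 CPM of the summed reads of transplanted cells, 5470 CPM of E15 and 2596 CPM of E12 reads. The part of these markers in the results was not tested. All 8 apical progenitor markers had reads in each of the 3 groups, and of the 12 ventral telencephalon markers Gsx2 was at 0 at E12. Group levels of the 4 genes are therefore given with and without these 16 libraries, a limit known from earlier results of these data, and those of other genes over all cells unless stated. In summed reads, fewer cells of a type and less RNA per cell cannot be told apart. Each pair of the 3 comparisons shares a group of cells.

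Dll1, the ligand, had a higher share of cells with a read and a lower summed level in both older groups than at E12. Per cell it had a lowest, median and highest level of 0, 0 and 105.5 CPM in transplanted cells, of 0, 1.28 and 202.8 CPM in E15 cells and of 0, 0 and 75.2 CPM in E12 cells. Many cells of every group lay at 0 and the ranges overlapped. A read of Dll1 was found in 9 of 19 transplanted cells (47.4%, 24.4 to 71.1), in 14 of 26 E15 cells (53.8%, 33.4 to 73.4) and in 2 of 20 E12 cells (10%, 1.23 to 31.7). The summed level ran the other way, at 18.3 CPM in transplanted cells (16.1 to 20.8), 16.3 CPM in E15 cells (15.01 to 17.6) and 33.8 CPM in E12 cells (28.9 to 39.3).

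The E12 level of Dll1 rested on 2 cells, replicates 5 and 17, which are also the cells where Dll1 stood at 75.2 and 70.8 CPM. Replicate 5, the deepest E12 library, gave 73.7% of the 167 E12 reads of the gene. The log2 ratio of E15 over E12 was -1.01, and 0.27 without that cell, and on the mean of CPM per cell (16.1 at E15, 7.30 at E12) it was 1.04. The log2 ratio of transplanted over E12 cells was likewise -0.85, and 0.43 without the same cell. Without the many-gene libraries the level of Dll1 was 11.9 CPM in transplanted cells, 21.6 CPM in E15 cells and 33.8 CPM in E12 cells. Those levels also rested on single cells: replicate 2 of the transplanted group held 61.8% of its reads, with 4.86 CPM left without it, and replicate 2 of the E15 group 92.9%, with 1.71 CPM left. Of the 9 transplanted cells with Dll1, 5 were many-gene libraries, which is all 5 of that kind, and of the 14 E15 cells 9 were.

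Within the 8 pools named in the labels Dll1 was higher at E15 than at E12 in 6 of 8 and higher in transplanted than in E12 cells in 6 of 7. The only E12 cells with a read of Dll1 were in pools E and F. In the 6 pools counted as higher the E12 level was thus 0, and any read in the older group made it higher. These counts therefore restate the 2 E12 cells with a read and cannot serve as a separate comparison. Dll1 per cell also moved with the depth of the library. Its Spearman's correlation with total reads was 0.723 over 19 transplanted cells, 0.47 over 26 E15 cells and 0.521 over 20 E12 cells. With the number of genes detected it was 0.845, 0.583 and 0.494 over the same cells, where both measures share the library. When each cell was thinned to 25000 reads, leaving out 2 shallower cells per group, Dll1 was read in 4 of 17 transplanted cells, 4 of 24 E15 cells and 2 of 18 E12 cells. At this equal number of reads, with genes detected not matched, the shares were 23.5% (6.81 to 49.9), 16.7% (4.74 to 37.4) and 11.1% (1.38 to 34.7), and their limits overlapped. Without the many-gene libraries Dll1 was read in 2 of 12 thinned transplanted cells (16.7%, 2.09 to 48.4) and 1 of 13 E15 cells (7.69%, 0.195 to 36.0). The E15 share was then below that of E12, again with overlapping limits.

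Notch1, the receptor, on the minus strand of chromosome 2 from 26457903 to 26516663, was lower in both older groups than at E12 in summed reads. It had 1.65 CPM in transplanted cells (1.02 to 2.52), 3.02 CPM in E15 cells (2.48 to 3.62) and 11.1 CPM in E12 cells (8.38 to 14.5). These levels rest on 21 reads in transplanted cells, 113 in E15 cells and 55 in E12 cells. Per cell the lowest and the median level was 0 in each group, and the highest was 89.5 CPM in transplanted cells, 21.8 CPM in E15 cells and 191 CPM in E12 cells. Most cells of every group thus had no read, and the highest values came from shallow libraries: the transplanted one rests on 2 reads and the E12 one on 3. A read was found in 4 of 19 transplanted cells, 12 of 26 E15 cells and 7 of 20 E12 cells.

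The log2 ratio of Notch1 was -1.59 for E15 over E12, between -1.82 and -1.09 when single cells were left out, and -2.19 for transplanted over E12, between -2.69 and -1.69. With the many-gene libraries left out, the levels were 1.72 CPM in transplanted cells (0.744 to 3.40), 3.36 CPM in E15 cells (2.36 to 4.63) and 11.1 CPM in E12 cells, and these ratios -1.48 and -2.15. Within pools the direction was mixed: Notch1 was lower at E15 than at E12 in 5 and higher in 3 of 8, and lower in transplanted than in E12 cells in 3 and higher in 3 of 7. For transplanted over E15 cells the log2 ratio was -0.60, the mean of CPM per cell gave 0.70, and neither group reached 5 CPM, with the gene lower in transplanted cells in 6 of 7 pools. Thinned to 25000 reads, Notch1 was read in 0 of 17 transplanted, 0 of 24 E15 and 1 of 18 E12 cells, so its share could not be compared at an equal number of reads. Gm13568, an antisense gene that overlaps Notch1, is also in the tables. Whether reads were counted by strand is not given in the sources used here, so reads of these 2 genes cannot be told apart.

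**Figure D1:**
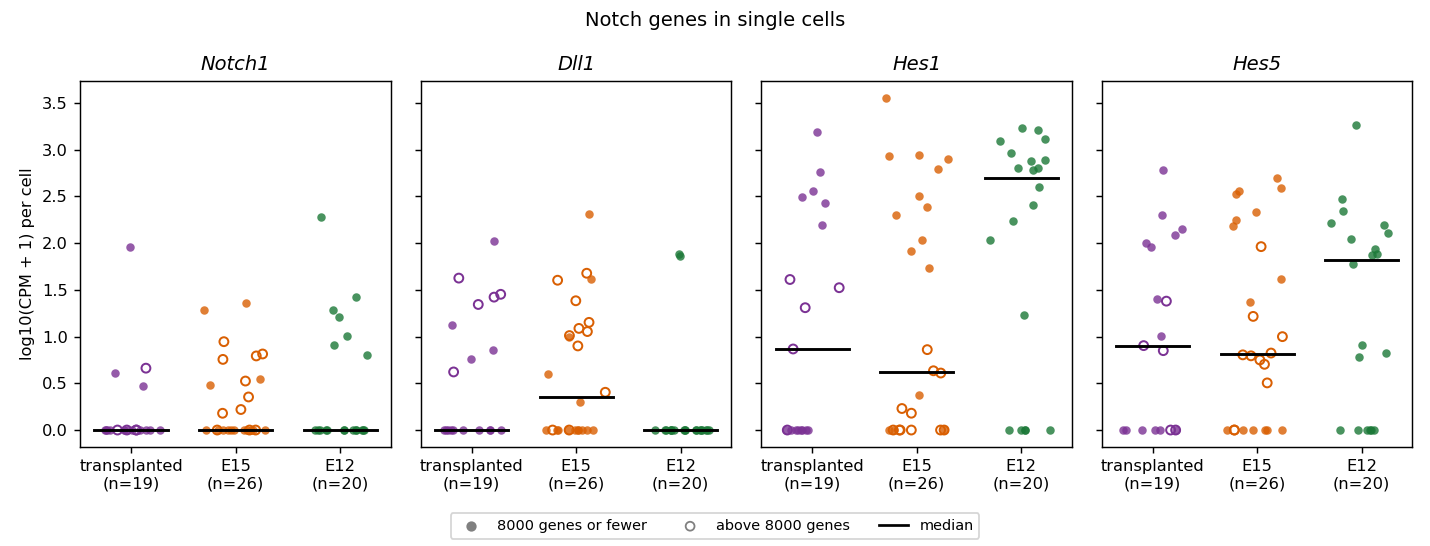
Level of each gene in each of the 65 cells as log10 of CPM plus 1, with 1 point per cell, the median of each group as a bar and libraries above 8000 genes as open points. Hes1 at E12 splits into 14 cells at 107.8 CPM or more and 6 cells at 15.9 CPM or less, and no open point lies at 100 CPM or more in any panel.

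Hes1, a basic helix-loop-helix repressor and a well-known target of Notch in the cortex, was lower in both older groups than at E12 in summed reads over all cells. It lies on the plus strand of chromosome 16 from 30064384 to 30067796. Per cell its lowest, median and highest level was 0, 6.36 and 1543 CPM in transplanted cells, 0, 3.19 and 3591 CPM in E15 cells and 0, 504.8 and 1691 CPM in E12 cells. Over all cells the median E12 cell was thus far above the median cell of either older group. The highest cells of all 3 groups lay in the same range, and the single highest was an E15 cell. Without the many-gene libraries the median was 0 CPM in transplanted and 196.2 CPM in E15 cells, beside 504.8 CPM at E12. The mean of CPM per cell was then 229, 514 and 555 in these groups, with a log2 ratio of -0.11 for E15 over E12. In summed reads over all cells Hes1 had 98.3 CPM in transplanted cells (92.9 to 103.9), 97.2 CPM in E15 cells (94.0 to 100.4) and 547 CPM in E12 cells (527 to 568).

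Cells of each group fell into those with much and those with little Hes1. At E15 no cell lay between 6.24 and 53.3 CPM, a gap placed lower than in the other groups. The 4 E15 cells between 50 and 200 CPM lay on both sides of the limit used next. At a limit of 100 CPM, set after the values had been seen, 6 of 19 transplanted cells (31.6%, 12.6 to 56.6), 9 of 26 E15 cells (34.6%, 17.2 to 55.7) and 14 of 20 E12 cells (70.0%, 45.7 to 88.1) were above it. At E12 no cell lay between 15.9 and 107.8 CPM, and 5 cells had no read. The E12 cell at 107.8 CPM rests on 3 reads in a library of 27820. No transplanted cell lay between 39.8 and 155 CPM. Among the cells above the limit the median level was 337 CPM in transplanted cells, 611 CPM in E15 cells and 693 CPM in E12 cells. None of the 16 many-gene libraries was above it: their highest Hes1 was 39.8 CPM in transplanted cells and 6.24 CPM in E15 cells.

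Leaving out these libraries narrowed the gap. Hes1 was then at 231 CPM in transplanted cells (217 to 245), 327 CPM in E15 cells (317 to 338) and 547 CPM in E12 cells, and 6 of 14, 9 of 15 and 14 of 20 cells were above the limit. The log2 ratio of E15 over E12 was -2.48 over all cells and -0.74 without them, and that of transplanted over E12 cells was -2.47 and -1.24. Without libraries above 7000 genes these ratios were -0.04 and -2.09, and that of transplanted over E15 cells was -2.05. The part of the many-gene libraries' cell makeup in the ratios over all cells was not tested. Single cells also weigh on the sums. Transplanted replicate 19 held 64.7% of the transplanted reads of Hes1, and E15 replicate 18 held 37.4% of the E15 reads. Over all cells the transplanted over E15 ratio was 0.02, with -1.14 when transplanted replicate 19 and 0.67 when E15 replicate 18 was left out, so the order of these 2 groups turned on single cells. The same ratio was -0.77 on the mean of CPM per cell and -1.03 on thinned reads.

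Hes1 could be compared within the 8 pools named in the labels, whose meaning is not given there and which hold 1 to 5 cells of a group each. Hes1 was lower at E15 than at E12 in 7 of the 8 pools, and lower in transplanted than in E12 cells in 5 of 7. Between transplanted and E15 cells it was higher in 4 and lower in 3 of 7 pools. In pool D neither of the 2 E12 cells had a read. All values within pools include the many-gene libraries, which were all 3 E15 cells of pool B and all 4 of pool C. Pool ratios without these libraries are not given, so the pool counts do not show a direction apart from them. After thinning to 25000 reads, Hes1 was read in 5 of 17 transplanted cells (29.4%, 10.3 to 56.0), 9 of 24 E15 cells (37.5%, 18.8 to 59.4) and 12 of 18 E12 cells (66.7%, 41.0 to 86.7). Over all libraries the share was again highest at E12, with limits that overlapped. Without the many-gene libraries Hes1 was read in 4 of 12 thinned transplanted cells (33.3%, 9.92 to 65.1). It was then read in 9 of 13 thinned E15 cells (69.2%, 38.6 to 90.9), so the E15 share was no longer below that of E12.

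Hes5, a repressor of the same family that acts beside Hes1, differed less between the groups, and its order depended on the libraries used. Per cell its lowest, median and highest level was 0, 6.997 and 605 CPM in transplanted cells, 0, 5.52 and 499.7 CPM in E15 cells and 0, 65.6 and 1830 CPM in E12 cells. The median was higher at E12 and the ranges overlapped. The highest E12 value rests on 20 reads in a library of 10928. In summed reads Hes5 had 55.1 CPM in transplanted cells (51.1 to 59.4), 66.3 CPM in E15 cells (63.7 to 68.9) and 111.5 CPM in E12 cells (102.4 to 121).

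Without the many-gene libraries the E15 level of Hes5 passed that of E12. It was 129.5 CPM in transplanted cells (119 to 140), 211.5 CPM in E15 cells (203 to 220) and 111.5 CPM in E12 cells. The log2 ratio of E15 over E12 was -0.74 over all cells and 0.92 without these libraries, but -0.06 when E15 replicate 13 was left out as well, a cell with 59.2% of all E15 reads of Hes5. The mean of CPM per cell without these libraries (145 at E15, 160 at E12) gave -0.14. The ratio of transplanted over E12 cells was -1.003 over all cells and 0.21 without them. Cells above 100 CPM were 4 of 19 transplanted, 7 of 26 E15 and 7 of 20 E12 cells over all libraries, and 4 of 14, 7 of 15 and 7 of 20 without the many-gene ones. Within pools Hes5 was lower at E15 than at E12 in 7 of 8 and lower in transplanted than in E12 cells in 6 of 7. A pool's ratio rests on few and partly shallow cells and includes the many-gene libraries.

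**Figure D2:**
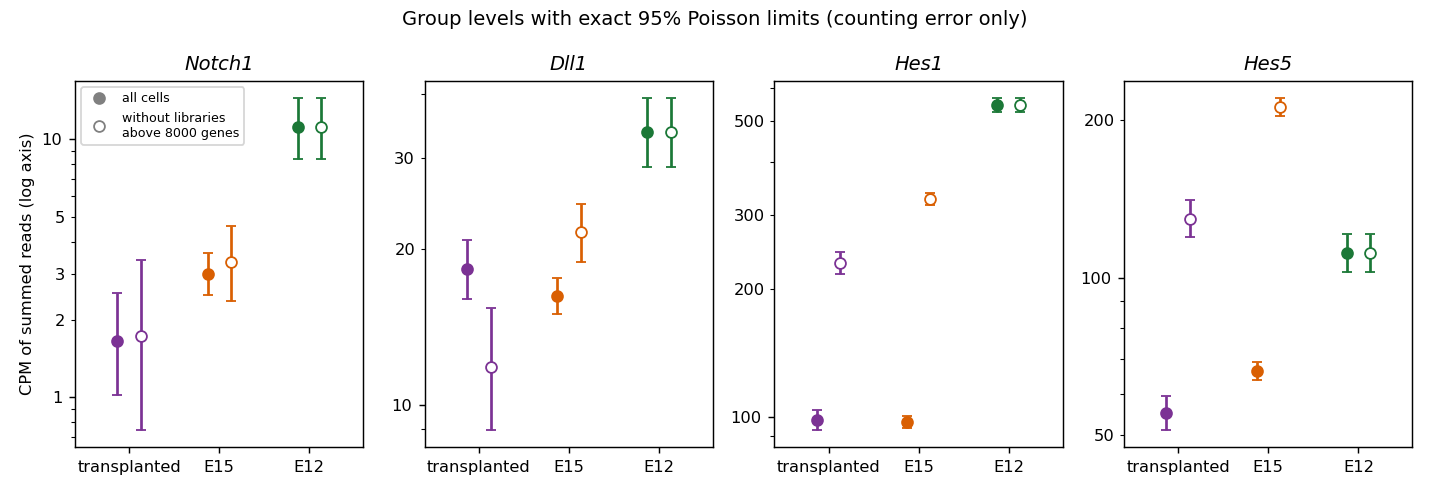
Level of each gene from the summed reads of a group, in CPM on a log axis, over all cells (filled) and without libraries above 8000 genes (open), with exact 95% Poisson limits that cover counting error only. For Hes1 the open points of the transplanted (231 CPM) and E15 (327 CPM) cells lie nearer to the E12 level of 547 CPM than the filled ones, and for Hes5 the open E15 point (211.5 CPM) lies above the E12 one (111.5 CPM).

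Counted together, 3 of the 4 genes (Notch1, Dll1 and Hes1) were at least 2-fold lower at E15 than at E12, on a log2 scale of CPM plus 1. Of all 10193 genes with at least 5 CPM in either group, 20.3% were that much lower. For transplanted over E12 cells 3 of the 4 (Notch1, Hes1 and Hes5) were at least 2-fold lower, beside 24.7% of 9931 genes. For transplanted over E15 cells 0 of the 4 passed 2-fold, beside 11.8% of 10163 genes lower and 4.71% higher. Without the many-gene libraries only Notch1 was past 2-fold at E15 against E12, beside 21.6% of genes lower. Transplanted cells then had Notch1, Dll1 and Hes1 past it against E12 cells, beside 29.8% of genes lower, and none of the 4 against E15 cells, beside 28.0% lower.

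How the 4 genes met in single cells could be read directly. Reads of all 4 were found in 3 of 19 transplanted, 6 of 26 E15 and 2 of 20 E12 cells, and reads of none in 4, 2 and 2 cells of these groups. Cells with all 4 were deep, with a median of 2584656, 2467444 and 1128436 reads. In each group the cell with the highest Dll1 also held reads of the receptor and of both effectors. In transplanted replicate 2 Dll1 was at 105.5 CPM, Notch1 at 3.10, Hes1 at 571 and Hes5 at 605 CPM, the last being the highest Hes5 of its group. In E15 replicate 2 Dll1 was at 202.8 CPM, Notch1 at 18.4, Hes1 at 319 and Hes5 at 150.5 CPM. In E12 replicate 5 Dll1 and Hes5 were both at 75.2 CPM, Notch1 at 18.3 and Hes1 at 400.4 CPM. Ligand and effectors were thus read in the same libraries, and whether 1 or more cells gave each library was not tested.

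The cells with the highest Hes1 differed in Hes5. Transplanted replicate 3, at 1543 CPM of Hes1, had no read of Hes5, E15 replicate 18, at 3591 CPM, had Hes5 at 390.5 CPM, and E12 replicate 6, at 1691 CPM, had 1 read of Hes5. Both effectors were read in 7 transplanted, 12 E15 and 11 E12 cells. Hes1 without Hes5 was found in 3, 5 and 4 cells of these groups and Hes5 without Hes1 in 4, 6 and 3. Spearman's correlation of Hes1 and Hes5 was 0.459 over 19 transplanted cells, 0.411 over 26 E15 cells and 0.0115 over 20 E12 cells, and 0.536 and 0.457 in the first 2 without the many-gene libraries. The pair thus ran together in part in the older groups, and no such relation was seen at E12. Correlations of Dll1 with either effector lay between -0.173 and 0.282 in the 3 groups over all cells. That of Dll1 and Hes5 in transplanted cells was 0.136 over all 19, but 0.466 over the 14 without the many-gene libraries and 0.475 over 17 thinned cells. All these are over cells that share their depth between the genes.

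**Figure D3:**
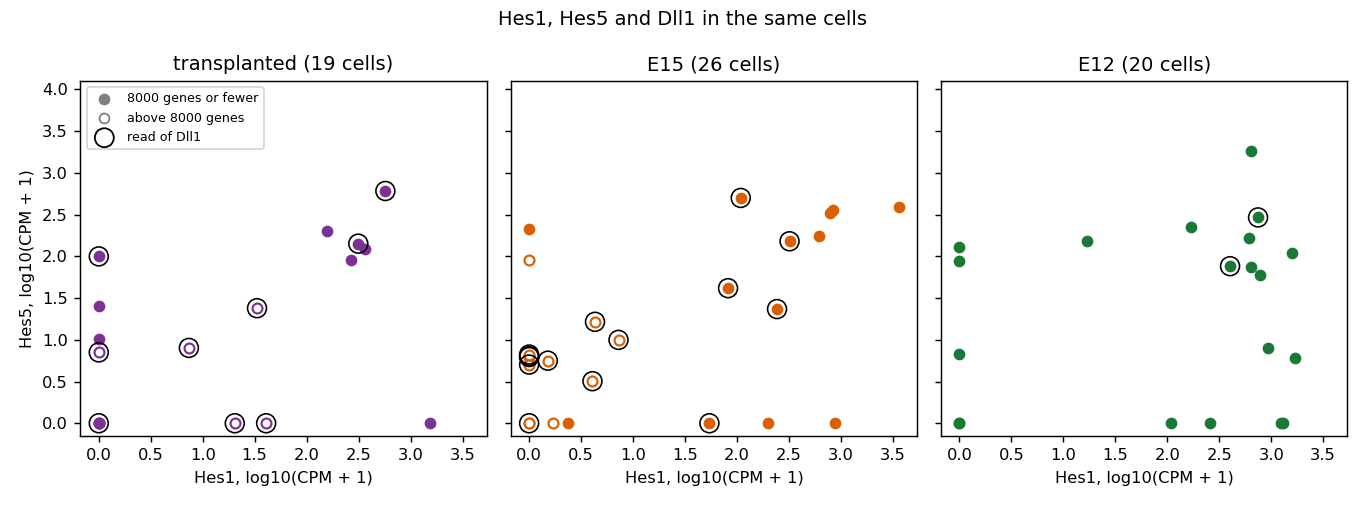
Hes5 against Hes1 in each cell, both as log10 of CPM plus 1, for the 3 groups, with open points for libraries above 8000 genes and a ring around cells with a read of Dll1. Both effectors were read in 7 transplanted, 12 E15 and 11 E12 cells, and the 2 ringed E12 cells lie among the cells with both.

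Both effectors were also set beside the marker genes of the cells, over the same libraries. Spearman's correlation of Hes1 with the summed apical progenitor markers was 0.410 over 19 transplanted cells, 0.616 over 26 E15 cells and 0.285 over 20 E12 cells. With the summed neuron markers it was -0.213, -0.664 and 0.106 in these groups. For Hes5 the values were 0.545, 0.501 and 0.112 with the apical progenitor markers and -0.150, -0.570 and -0.0389 with the neuron markers. Once the many-gene libraries were left out, the values with the apical progenitor markers were 0.635 in transplanted and 0.487 in E15 cells for Hes1, and 0.627 and 0.518 for Hes5. Those with the neuron markers were then -0.302 in transplanted and -0.563 in E15 cells for Hes1, and 0.0252 and -0.693 for Hes5. With the number of genes detected they were 0.562 in transplanted and -0.0609 in E15 cells for Hes1, and 0.659 and 0.103 for Hes5. At E12 the correlation with genes detected was 0.0985 for Hes1 and 0.639 for Hes5. Among the proneural genes, Neurog2, which Hes1 is known to repress, ran with Hes1 in transplanted cells, at 0.767 over 19 cells, against 0.147 at E15 and -0.197 at E12. This pair was singled out after its values had been seen.

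The genes whose levels ran most like each of the 4 were ranked by the mean of the 3 correlations within groups over the 65 cells, among about 5460 genes read in at least 30% of the cells of each group. Ptn, a secreted growth factor of radial glia, led for Hes1 with a mean of 0.606, ahead of Stag2 (0.560), Cyb5b (0.553), Tspan6 (0.538) and Calu (0.528). For Hes5 the first were Pdlim7 (0.613), Pou3f3, a POU factor of neural progenitors (0.598), Ptprz1, a receptor phosphatase of radial glia (0.596), Acss1 (0.570) and Pdpn (0.551). No gene stood in both of these lists. For Dll1 Cipc (0.680), Ascc3 (0.657), Aggf1 (0.650), Mob2 (0.639) and Gpaa1 (0.607) led. For Notch1 they were Abhd17b (0.567), Wdr12 (0.563), Ascc3 (0.550), Vps36 (0.532) and Kat6a (0.521), so that Ascc3 stood in the lists of both the ligand and the receptor. Notch1 and Dll1 also ran with the number of genes detected at E15, at 0.569 and 0.583. The limit of 30% was not set for the 4 genes themselves. Notch1 was read in 21.1% of transplanted cells and Dll1 in 10% of E12 cells, so these correlations rest on many cells tied at 0. All these genes are the top of a ranking by the values printed, which are therefore high by selection.

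On the deposited scale the groups lay closer together. There a value is the log10 of scaled reads after the mean of the gene and 2 further patterns over cells had been removed, so that cells without a read have different values. For Hes1 the lowest, median and highest deposited value was -1.14, -0.0772 and 0.798 in transplanted cells, -1.30, 0.0401 and 1.03 in E15 cells and -1.51, 0.324 and 1.41 in E12 cells. For Hes5 it was -1.09, 0.0608 and 0.627 in transplanted cells, -0.959, 0.0509 and 0.831 in E15 cells and -0.757, -0.120 and 1.31 in E12 cells. The order of the group medians was thus kept at the top for Hes1, while the E12 median of Hes5, the highest in CPM, was the lowest here. Cells without a read of Hes1 spanned -1.51 to 0.102, and 12 of the 42 cells with a read lay below the highest of them. For Hes5 the span was -1.09 to 0.180, and 26 of 43 cells with a read lay below its top.

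For Dll1 the deposited values were -0.278, -0.0305 and 0.793 in transplanted cells, -0.323, -0.0621 and 1.12 in E15 cells and -0.275, -0.112 and 0.698 in E12 cells, again as lowest, median and highest. For Notch1 they were -0.154, -0.0726 and 0.868, then -0.174, -0.0649 and 0.396, then -0.169, -0.0977 and 1.18 in the same groups. All medians of these 2 genes were below 0 and close together. Spearman's correlation of deposited value and CPM over the 65 cells was 0.839 for Hes1, 0.829 for Notch1, 0.772 for Hes5 and 0.657 for Dll1. The removed patterns held 74.5% of the variance of genes detected and 24.2% of that of E12 membership.

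The rest of the pathway was read through a list of 82 genes in 8 roles, of which 63 were in the tables, 59 of them beside the 4 genes. Of 58 others with at least 5 CPM, 11 were at least 2-fold higher and 15 lower at E15 than at E12, which is 19% and 25.9%, beside 25.3% and 20.3% of all genes. The median log2 ratio of the 58 was -0.31, beside -0.03 over all genes. For transplanted over E15 cells 0 of 58 were higher and 10 (17.2%) lower, beside 4.71% and 11.8% of all genes. The median was -0.32, beside -0.08 over all genes. For transplanted over E12 cells 8 of 56 (14.3%) were higher and 23 (41.1%) lower, beside 22.9% and 24.7% of all genes. The median was -0.47, beside -0.09. The transplanted against E15 counts depended on the many-gene libraries: 26 of 56 (46.4%) were lower and 2 (3.57%) higher once they were left out, at a median of -0.84. Over all genes 28.0% were then lower and 18.7% higher, at a median of -0.13.

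Of the 3 other receptors, 2 were at least 2-fold lower in each older group than at E12 over all cells. Of all genes, 20.3% were that much lower at E15 and 24.7% in transplanted cells. Notch2 was at 2.75 CPM in transplanted cells, 5.04 CPM in E15 cells and 29.7 CPM in E12 cells, and Notch3 at 3.77, 5.23 and 22.1 CPM in the same order. Both were read in 4 of the 20 E12 cells. Without the many-gene libraries the log2 ratio of E15 over E12 was -1.15 for Notch2 and -0.62 for Notch3. So 1 of 3 was past 2-fold, beside 21.6% of all genes lower. The ratio of transplanted over E12 cells was then -2.00 for Notch2 and -1.29 for Notch3. Among the ligands, Dll3, which acts within the cell, was at 63.2 CPM in transplanted cells, 50.1 CPM in E15 cells and 110.7 CPM in E12 cells, but at 33.8, 100.1 and 110.7 CPM without the many-gene libraries. Dner, a Notch ligand of neurons, went the other way, at 94.1, 50.4 and 19.8 CPM, and was higher in both older groups with and without the many-gene libraries, by less than 2-fold at E15 without them (30.6 CPM).

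Among the genes that handle ligands and receptors, Lfng, a glycosyltransferase that tunes the receptor for Delta ligands, was at 2.67 CPM in transplanted cells, 23.96 CPM in E15 cells and 22.7 CPM in E12 cells. It was the one gene of this role that differed little between E15 and E12 and was over 2-fold lower in transplanted cells than in both, but E15 cells had 69.7 CPM without the many-gene libraries. Mfng, of the same family, was at 321.5, 200.3 and 204 CPM. Numb, an inhibitor of Notch that is passed on unevenly at division, was at 4.88 CPM in transplanted cells, 14.01 CPM in E15 cells and 32.4 CPM in E12 cells, and Itch, a ubiquitin ligase that acts on Notch, at 26.3, 41.4 and 90.9 CPM. For Itch the E15 over E12 log2 ratio was -1.12, and -0.78 when the many-gene libraries were left out. Of the other genes past 2-fold in at least 2 comparisons, Poglut1 and Dtx2 were lower and Rfng and Dtx1 higher in both older groups than at E12 over all cells. In the cells outside the many-gene libraries the E15 over E12 log2 ratio was -0.10 for Rfng and -0.35 for Dtx2, and the transplanted over E12 ratio was 0.75 for Rfng and -0.94 for Poglut1, none of them past 2-fold. Dtx1 was at 30.6 CPM in transplanted cells, 1.72 CPM in E15 cells and 9.51 CPM in E12 cells without the many-gene libraries, so its E15 ratio turned round. Mib2 and Pofut1 were higher at E15 than in the other 2 groups and rest on 4 reads each at E12.

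In the cleavage step, Psenen, a subunit of gamma-secretase, was at 3.22 CPM in transplanted cells, 4.99 CPM in E15 cells and 25.5 CPM in E12 cells. Aph1b, another subunit, was at 25.95 and 29.2 CPM in the older groups and at 0.809 CPM at E12, where it rests on 4 reads of 1 cell, and at 10.1 and 42.5 CPM in the older groups without the many-gene libraries. Ncstn, the nicastrin subunit, was at 35.4, 54.6 and 103 CPM. The shedding protease Adam17 was at 7.71 CPM in transplanted cells, 26.98 CPM in E15 cells and 19.4 CPM in E12 cells, and Furin, which cuts the receptor precursor, at 3.70, 11.95 and 8.90 CPM. Both were lower in transplanted cells than in either other group.

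In the nuclear complex Rbpj itself, the partner of the cut receptor, was at 38.6 CPM in transplanted cells, 51.1 CPM in E15 cells and 64.1 CPM in E12 cells, within 2-fold in all 3 comparisons over all cells, and it was named with its values known. Leaving out the many-gene libraries put it at 24.4, 75.7 and 64.1 CPM, over 2-fold lower in transplanted cells than in both others. Maml1, its coactivator, was at 3.70, 7.02 and 27.1 CPM. The acetyltransferases Kat2a (47.5 CPM in transplanted, 54.3 CPM in E15 and 136 CPM in E12 cells) and Kat2b (1.73, 10.3 and 24.9 CPM) were lower in both older groups. With those libraries left out, their E15 over E12 log2 ratios of -1.31 and -1.20 were -0.58 and -0.71, not past 2-fold. Hdac2, a deacetylase, differed little, at 691 CPM in transplanted cells, 685 CPM in E15 cells and 725.6 CPM in E12 cells.

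The other targets in the tables were Hey1 and Hes6. Hey1, a repressor related to the Hes factors, was at 39.4 CPM in transplanted cells, 22.04 CPM in E15 cells and 190.0 CPM in E12 cells. Its log2 ratio of E15 over E12 was -3.05 over all cells and -1.55 without the many-gene libraries, so it was past 2-fold in both, where Hes1 was so only over all cells. Hes6, which opposes Hes1, was at 789.5, 462 and 603 CPM, within 2-fold in all 3 comparisons. Of the proneural genes, Neurog2 was at 26.4 CPM in transplanted cells, 44.1 CPM in E15 cells and 90.2 CPM in E12 cells, but at 31.5 CPM in transplanted, 146 CPM in E15 and 90.2 CPM in E12 cells without the many-gene libraries.

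Among the partners of Hes proteins, the corepressors Tle3 and Tle4 were lower in both older groups, Tle4 at 41.0 CPM in transplanted cells, 92.1 CPM in E15 cells and 180.5 CPM in E12 cells. Tle3 was at 28.4, 38.7 and 100.2 CPM, and Aes, a short member of the family, at 529.5, 552 and 466 CPM. Of the Id proteins, which bind and block basic helix-loop-helix factors, Id4 was at 67.0 CPM in transplanted cells, 182 CPM in E15 cells and 264 CPM in E12 cells. Id3 was at 22.96, 38.2 and 1.21 CPM and Id1 at 7.55, 9.63 and 3.03 CPM, higher in both older groups over all cells. Without the many-gene libraries Id3 was at 0.647 CPM in transplanted cells, 106.8 CPM in E15 cells and 1.21 CPM in E12 cells, and Id1 at 5.17, 12.3 and 3.03 CPM.

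**Figure D4:**
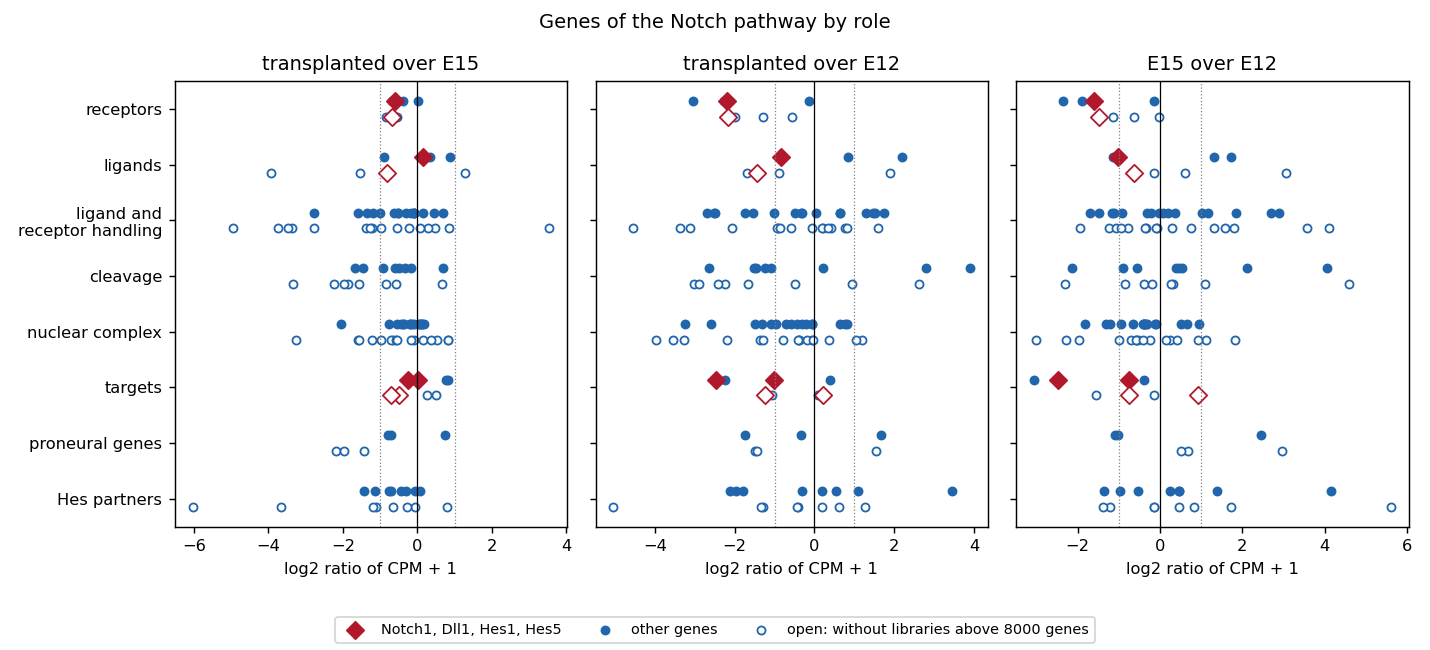
Log2 ratio of CPM plus 1 of the 63 measured genes of the Notch pathway list by role, in the 3 comparisons, over all cells (filled) and without libraries above 8000 genes (open), with Notch1, Dll1, Hes1 and Hes5 as diamonds and dotted lines at 2-fold. The Hes1 diamond moves between -2.48 (filled) and -0.74 (open) for E15 over E12, while both Notch1 diamonds lie left of the line, at -1.59 and -1.48.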

How the data were processed

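Per the labels' protocols, the kits were SMART-Seq v4 3′ DE and Nextera XT. STAR, HTSeq and the build mm10 are named, without versions, per the submitters' processing notes. The values deposited by the authors are log10 residuals: log10 of 1 plus reads scaled to 100000 per cell, centred per gene, with 2 further directions over cells removed, as read from the values themselves. The design had assumed counts. They were recovered from cells without a read for 9935 genes and by a search for whole counts for 472. Whole numbers resulted, within 0.01, for all 356667 values above 0, and each gene was read in 6 or more cells. On simulated data 100% of 1560 genes came back. Genes outside the tables held 0.736% to 5.99% of a cell's reads.

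Groups come from the labels, and replicate numbers follow accession order. Summed reads of a group were scaled to CPM, with exact Poisson limits and exact Clopper-Pearson limits for shares, and log2 ratios used a pseudocount of 1 CPM. Lists needed 5 CPM in either group. Named pathway genes were those past 2-fold in at least 2 comparisons and the one with the highest CPM in any group of each role, except 1 that is not reported here. Genes like a member excluded predicted genes. Members and lists were chosen with earlier results of these data known. Alternatives were mean CPM per cell, thinning to 25000 reads, scaling by TMM or by median of ratios (own code), the authors' totals, pseudocounts of 0.1 and 5 CPM, other sets of libraries, single cells or pools left out, ratios within pools and the deposited values. Of these the authors' totals and limits of 50 and 200 CPM were added after seeing the data. No 2 libraries were identical, and the 65 pool and index labels were distinct. Software was Matplotlib 3.10.9, Numba 0.67.0, SciPy 1.17.1, Python 3.11.15, pandas 2.3.3 and NumPy 2.4.6.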

Additional observations from a re-analysis of the deposited data

How the results depend on the processing

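No paired analysis was possible because replicate numbers follow accession order and no result comes from a test; ratios within labelled pools serve as the blocked values. The median log2 ratio of the 4 genes for E15 over E12 was -1.30, against -0.87 on mean CPM, -0.28 on thinned reads, -0.94 with a pseudocount of 5 CPM, -0.68 and 0.17 without libraries above 8000 and 7000 genes, -1.85 within pools and 0.047 on deposited values. It lay between -1.73 and -1.02 when single cells and between -2.01 and -0.93 when single pools were left out. For transplanted over E15 cells it was -0.12, against -0.32, -0.49, -0.69 and -1.23 on mean CPM, on thinned reads and without libraries above 8000 and 7000 genes, and 0.37 within pools, with -0.81 to 0.0487 over left-out cells and -0.53 to 0.40 over left-out pools. For transplanted over E12 cells it was -1.60, against -1.22 on mean CPM, -0.88 on thinned reads, -1.12 with a pseudocount of 5 CPM, -1.34 without libraries above 8000 genes and -0.0088 on deposited values, with -1.97 to -1.27 over left-out cells and -1.95 to -1.34 over left-out pools. Dll1 turned round for E15 over E12, with 1.04 on mean CPM, 1.33 on thinned reads, 0.38 without libraries above 7000 genes, 1.66 within pools, 0.19 on deposited values, -1.57 to 0.27 over left-out cells (0.27 without E12 replicate 5) and 0.11 without 1 pool. Hes5 turned round for transplanted over E12 cells, with 0.21 and 0.0483 without libraries above 8000 and 7000 genes and 0.25 on deposited values. In that comparison Hes5 stayed negative at -1.19 on mean CPM, -0.07 on thinned reads and -2.10 within pools. Its -0.74 for E15 over E12 was 0.55 on thinned reads, 0.92 and 0.52 without libraries above 8000 and 7000 genes and 0.46 on deposited values. It stayed negative at -0.84 on mean CPM, -3.09 within pools and -2.75 to -0.31 over left-out pools. Dll1 for transplanted over E12 cells, -0.85, was 0.75 on mean CPM, 0.98 on thinned reads, 3.03 within pools, 0.21 on deposited values and 0.43 without E12 replicate 5. It was -1.44 and -0.80 without libraries above 8000 and 7000 genes. For E15 over E12 Dll1 was -0.62 without libraries above 8000 genes. Within pools the E12 level of Dll1 was 0 in every pool but E and F. The causes were not tested. Of the 48 medians under alternatives 20 stayed within the counting limits of the value above. Depth limits Notch1 most, with 21 reads in all transplanted cells.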
